A study of Mus musculus with 37 samples.

Results

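Tmem14c and Ahcy, with their relatives Tmem14a, Ahcyl1 and Ahcyl2, are 5 of the 21975 genes measured here by RNA-Seq in mouse cortical astrocytes, 4 months after the animals had a controlled cortical impact (CCI) or a sham operation. Tmem14c and Ahcy were chosen on these data, because they stood among the genes highest after CCI relative to sham and because both hemispheres of a mouse gave the same level. Their levels after CCI or sham, and the likeness of the hemispheres, are therefore given as a description with no test. Tmem14a, Ahcyl1 and Ahcyl2 were included as related genes for comparison, and all 5 rows were found by their Ensembl identifiers.

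The mice were male, labelled wild type with the strain entry CD31 (the study's methods name CD1, an outbred stock). Severe CCI opened the skull over the right parietal cortex and struck the brain, and sham mice had the craniectomy without the impact. Both had recording electrodes implanted, and injured mice were labelled PTE+ or PTE− according to whether they developed post-traumatic epilepsy. Astrocytes were taken with magnetic beads against ACSA-2 from the injured (ipsilateral) and the opposite (contralateral) cortex of single mice. The ipsilateral libraries came from 5 sham, 10 PTE− and 4 PTE+ mice, and the contralateral ones from 5 sham, 9 PTE− and 4 PTE+ mice. Of 20 mice, 17 had both hemispheres. Mice 9_14 (PTE−) and 9_19 (PTE+) had the ipsilateral library alone, and 8_17 (PTE+) the contralateral one alone.

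Values are in TPM, transcript abundances which divide by transcript length and by the library total, so that levels can be compared between genes. Between 15599 and 18534 genes lay above 0 TPM in a library, except for the ipsilateral library of PTE− mouse 9_14 with 10727, which stood apart and is given with and without below. The defining astrocyte transcript Gfap measured 117 to 1065 TPM, whereas Itgam of microglia measured 0 to 8.86 TPM and Rbfox3 of neurons 0 to 47.1 TPM. Transcripts of other cells were also abundant, with Mbp of oligodendrocytes at 114 to 3484 TPM (median 1012 TPM, against 373 TPM for Gfap) and the haemoglobin transcript Hba-a1 at a median of 825 TPM. In tissue preparations of this kind, fewer cells of a type and less RNA per cell cannot be told apart.

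Tmem14c encodes a small protein of the inner mitochondrial membrane that is needed for the movement of protoporphyrinogen IX to the last steps of heme synthesis. Ahcy encodes S-adenosylhomocysteine hydrolase, which splits the by-product of methylation reactions into homocysteine and adenosine and so keeps methyltransferases from being inhibited. Tmem14a belongs to the same membrane protein family as Tmem14c. Ahcyl1 and Ahcyl2 resemble Ahcy in sequence, and Ahcyl1 is known as IRBIT, a partner of the inositol trisphosphate receptor rather than a hydrolase.

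The Ahcy transcript has a near-identical copy that is also a row of the tables, and the bases at which they differ are shown because the Ahcy values below depend on them. Ahcy (ENSMUSG00000027597) lies on the reverse strand of chromosome 2 from 155059310 to 155074497 (GRCm38, the assembly also called mm10), and its transcript Ahcy-201 has 10 exons and 2543 bases. Gm4737 (ENSMUSG00000048087) lies on the reverse strand of chromosome 16 from 46152985 to 46155077 and has 1 exon, and the annotation lists it as protein coding with a retrogene tag. It matches Ahcy-201 from base 42 to base 2127 without a gap, at 99.7% identity over 2086 bases. The 7 differences, with the Ahcy base first and positions counted from 1 at the 5′ end of Ahcy-201, were C564T, G579A, C1155T and C1173T in the coding sequence and A1712T, G1716T and G2125A in the 3′ UTR. The 4 coding differences fall on the third base of a codon and leave the amino acid as it is. Stretches of both transcripts around 6 of the differences follow, 5′ to 3′, with the differing bases in capitals, at Ahcy-201 bases 552 to 591, 1143 to 1185 and 1700 to 1728.
Ahcy, 552 to 591: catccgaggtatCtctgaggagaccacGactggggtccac
Gm4737, same stretch: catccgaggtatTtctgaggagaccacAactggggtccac
Ahcy, 1143 to 1185: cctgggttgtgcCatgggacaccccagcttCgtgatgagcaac
Gm4737, same stretch: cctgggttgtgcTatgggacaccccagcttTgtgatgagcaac
Ahcy, 1700 to 1728: tgcaccttatcaAtgaGaccctcacttgg
Gm4737, same stretch: tgcaccttatcaTtgaTaccctcacttgg

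Because 67.4% of the 2444 windows of 100 bases in Ahcy-201 (the length of 1 read of a pair) occur unchanged in Gm4737, a share of single reads cannot be placed on one gene by its bases alone. RSEM, the program behind the deposited values, divides such reads between transcripts by an estimate. The first 41 and the last 416 bases of Ahcy-201 lie outside the match. Of 4 genes that matched an Ahcy transcript at 90% or more over at least 200 bases, Gm4737 was the 1 with a row in the tables. The other 3, Gm9826, Gm5638 and Gm4913, are processed pseudogenes and were not analysed here, and Gm4913 passed 90% in a stretch of 223 bases (91.9%, against Ahcy-203) but not in its longest match (88.5% over 1325 bases). Tmem14c matched 1 such gene, the processed pseudogene Gm4246, at 95.8% over 215 bases, which was not analysed here either.

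Tmem14c (ENSMUSG00000021361) lies on the forward strand of chromosome 13 from 41016292 to 41022586 and its transcript Tmem14c-201 has 6 exons and 914 bases. Its level in the 37 libraries fell into 3 ranges with wide gaps between them, the libraries being parted at the widest 2 gaps on the square root of TPM. In 17 libraries of 9 mice it lay between 0.97 and 5.12 TPM, in 15 libraries of 8 mice between 49.3 and 81.1 TPM, and in 5 libraries of 3 mice between 124 and 167 TPM. For every one of the 17 mice with both hemispheres, the 2 libraries lay in the same range.

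In the 5 sham mice, Tmem14c was low in 4 and in the middle range in 1. Ipsilateral sham values were 3.82 TPM in mouse 8_15, 2.49 TPM in 8_16, 2.18 TPM in 9_9, 61.7 TPM in 9_10 and 4.93 TPM in 9_11. The contralateral values of the same mice were 5.12, 2.98, 3.70, 49.3 and 3.70 TPM. Mouse 9_10 thus stood apart from the other sham mice in both cortices.

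In PTE+ mice, ipsilateral Tmem14c measured 72.8 TPM in mouse 8_10, 66.7 TPM in 9_17, 2.44 TPM in 9_18 and 124 TPM in 9_19. Contralateral PTE+ values were 67.9 TPM in 8_10, 2.70 TPM in 8_17, 59.9 TPM in 9_17 and 4.96 TPM in 9_18. All 3 ranges thus occurred among mice with epilepsy. The 10 ipsilateral PTE− libraries ran from 2.31 TPM through a median of 63.7 TPM to 140 TPM (64.8 TPM median without mouse 9_14), and the 9 contralateral ones from 0.97 TPM through 60.3 TPM to 167 TPM. PTE− mice 8_11, 8_13 and 9_12 were low in both cortices, and 8_9 and 9_16 were in the highest range in both. Every group therefore overlapped with every other.

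Ahcy also took 3 ranges, in a different set of mice. It lay between 0.08 and 1.14 TPM in 17 libraries of 9 mice, between 4.59 and 8.97 TPM in 15 libraries of 8 mice, and between 16.1 and 24.7 TPM in 5 libraries of 3 mice. The highest value, 24.7 TPM, belonged to mouse 9_14, and without it that range ended at 18.2 TPM. As with Tmem14c, both libraries of each of the 17 mice lay in 1 range.

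Ipsilateral Ahcy in sham mice measured 0.11 TPM in 8_15, 6.11 TPM in 8_16, 0.34 TPM in 9_9, 0.22 TPM in 9_10 and 0.08 TPM in 9_11. Contralateral values of these mice were 1.14, 7.20, 0.58, 0.75 and 0.58 TPM. Mouse 8_16 alone was in the middle range, whereas for Tmem14c that mouse was 9_10. In PTE+ mice, ipsilateral Ahcy was 7.55 TPM in 8_10, 7.87 TPM in 9_17, 8.96 TPM in 9_18 and 0.28 TPM in 9_19, and contralateral Ahcy was 6.66 TPM in 8_10, 8.53 TPM in 8_17, 7.09 TPM in 9_17 and 7.19 TPM in 9_18. All but mouse 9_19 were in the middle range. In PTE− mice, ipsilateral Ahcy ran from 0.37 TPM through a median of 6.66 TPM to 24.7 TPM (median 4.59 TPM and highest 18.2 TPM without 9_14), and contralateral Ahcy from 0.11 TPM through 4.72 TPM to 18.2 TPM. The highest range held PTE− mice 9_13, 9_14 and 9_20 alone.

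The ranges of both genes crossed in 6 of 9 possible ways among the 20 mice. There were 5 mice low for both genes, 4 low for Tmem14c and in the middle for Ahcy, 4 in the middle for both, and 3 in the middle for Tmem14c and highest for Ahcy. Mouse 9_10 was in the middle for Tmem14c and low for Ahcy, and the 3 mice highest for Tmem14c were all low for Ahcy.

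**Figure D1:**
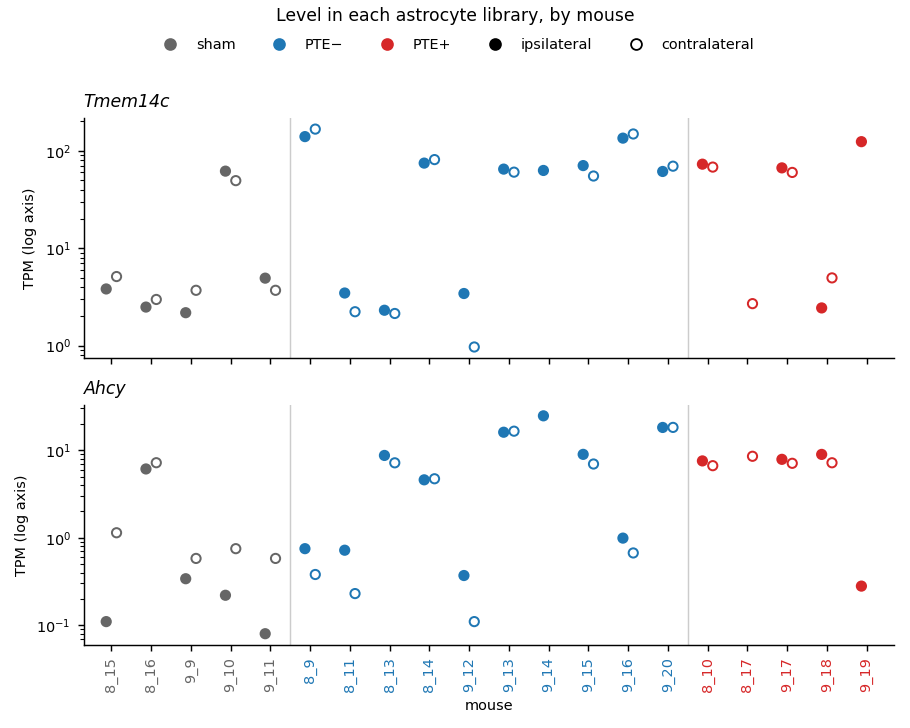
Tmem14c (top) and Ahcy (bottom) in TPM on a log axis for each of 20 mice, filled points for the ipsilateral and open points for the contralateral cortex, coloured by group. The 2 points of a mouse sit together, while mice of 1 group lie as far apart as 2.18 and 61.7 TPM for ipsilateral Tmem14c in sham.

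Differences between the hemispheres of a mouse were small beside those between mice. For Tmem14c, the absolute ipsilateral minus contralateral difference of log2(TPM + 1) had a median of 0.25 over 17 mice and reached 1.17 in mouse 9_12, whose values were 3.43 and 0.97 TPM. Between mice, each taken as the mean of its 2 libraries, the median absolute difference over 136 pairs was 3.55 and the largest was 5.70. For Ahcy these values were 0.25 within a mouse, at most 0.95 in mouse 8_15, against a median of 1.96 and a largest of 3.96 between mice. The related genes had within-mouse medians of 0.15 for Tmem14a, 0.19 for Ahcyl1 and 0.18 for Ahcyl2, and between-mouse medians of 0.28, 0.25 and 0.44.

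**Figure D2:**
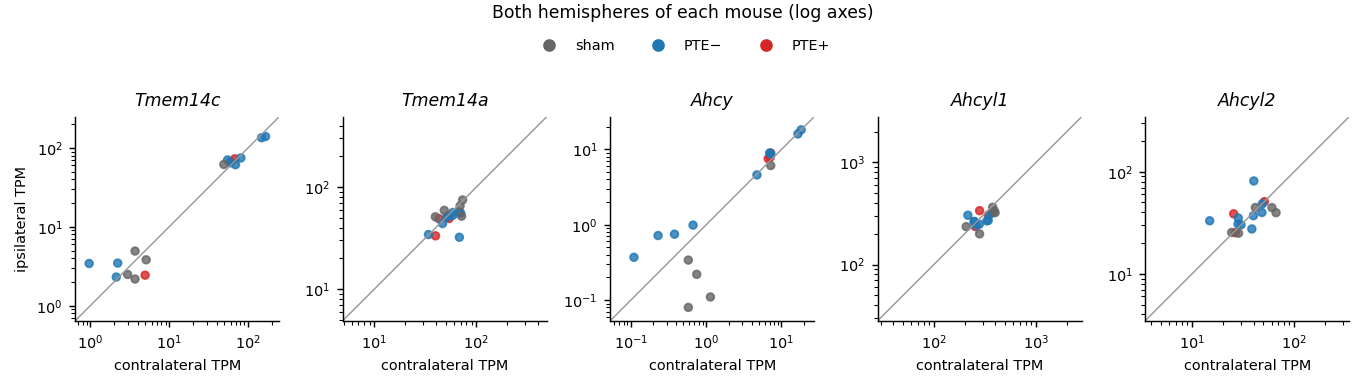
Ipsilateral against contralateral TPM of the 17 mice with both libraries, on log axes, with the line of equal levels and points coloured by group. Tmem14c and Ahcy form separate clusters along the line, from 0.97 to 167 TPM and from 0.08 to 18.2 TPM, while each related gene forms a single cloud.

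To place this among all genes, a gene was called split where the mouse means of log2(TPM + 1), sorted, had a largest gap of at least 1 with 2 or more mice on each side, and both libraries of every mouse lay on the same side of that gap. Of the 10874 genes whose mean passed 5 TPM in any of the 6 groups, 29 (0.267%) were split. Tmem14c and Ahcy were among them, which their choice made likely, and Tmem14a, Ahcyl1 and Ahcyl2 were not. The largest gap of Tmem14c was 3.37, the fifth largest of the 29, and that of Ahcy was 1.63. In the related genes the largest gap was 0.30 (Tmem14a), 0.18 (Ahcyl1) and 0.23 (Ahcyl2). The 5 split genes with the largest gaps were Tpm3-rs7 (4.14), Gm10184 (3.67), Prss22 (3.50), AC117239.2 (3.45) and Tmem14c. Gm4737 followed as the sixth, with a gap of 2.95.

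The mean square between mice was 108 times that between the hemispheres of a mouse for Tmem14c, and 4 of the 10874 genes had a higher ratio. High ratios of Tmem14c and Ahcy were made likely by their choice. The ratio was 60.8 for Ahcy, with 13 genes above it, and 45.1 for Gm4737, with 19 above. It was 3.05 for Tmem14a, 3.54 for Ahcyl1 and 3.24 for Ahcyl2, against a median of 2.51 over all genes. The mean square between hemispheres was not unusual in Tmem14c (70.0% of genes had a lower one) or Ahcy (56.8%).

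**Figure D3:**
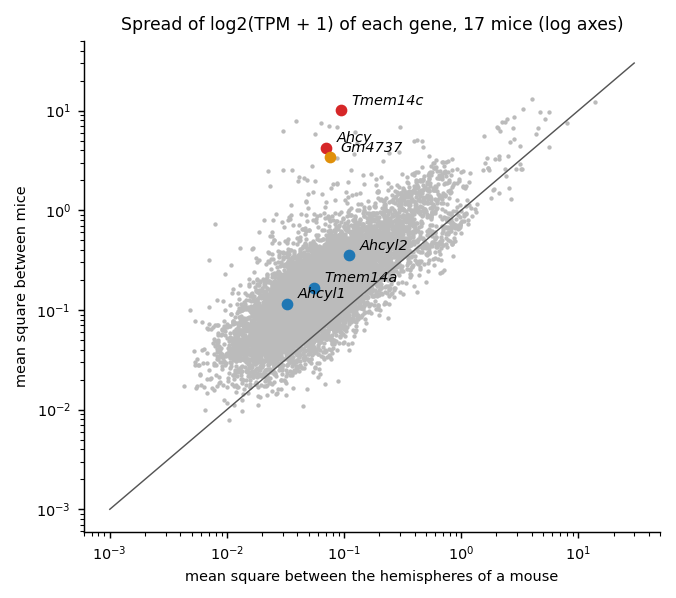
Mean square of log2(TPM + 1) between mice against that between the hemispheres of a mouse, on log axes, for 10874 genes (grey) in 17 mice, with the line of equal values. Tmem14c, Ahcy and Gm4737 stand above the cloud at between-mouse values of 10.1, 4.23 and 3.41, whereas Tmem14a, Ahcyl1 and Ahcyl2 lie within it at 0.17, 0.12 and 0.36. The choice of Tmem14c and Ahcy made their position likely.

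The copy Gm4737 was high where Ahcy was low. In the 17 libraries with Ahcy at or below 1.14 TPM, Gm4737 lay between 14.6 and 27.1 TPM. In the 15 libraries of the middle Ahcy range it lay between 5.22 and 14.6 TPM. In the 5 libraries of mice 9_13, 9_14 and 9_20 it was between 0 and 0.43 TPM. Ahcy thus took 0.39% to 7.23% of the sum of both genes in the first set, 26.5% to 47.5% (median 40.6%) in the second and 97.5% to 100% in the third, with no overlap. Sorting the libraries by Ahcy fixes part of this, since Ahcy enters both its level and its share.

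The sum of Ahcy and Gm4737 varied much less than either gene. Over all 37 libraries it ran from 9.94 TPM through a median of 18.3 TPM to 27.3 TPM, with a coefficient of variation of 16.4% against 111% for Ahcy and 51.5% for Gm4737. Its median was 18.2 TPM, 18.6 TPM and 18.3 TPM in the low, middle and high Ahcy ranges. The lowest sum, 9.94 TPM, belonged to the contralateral library of PTE− mouse 8_14, whose ipsilateral sum was 17.3 TPM. Within a mouse, the median absolute difference of the sum on log2(TPM + 1) was 0.20. Between mice, each taken as the mean of its 2 libraries, it was 0.16. Means of 2 libraries vary less than single libraries, so these values do not show that mice were more alike than hemispheres.

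**Figure D4:**
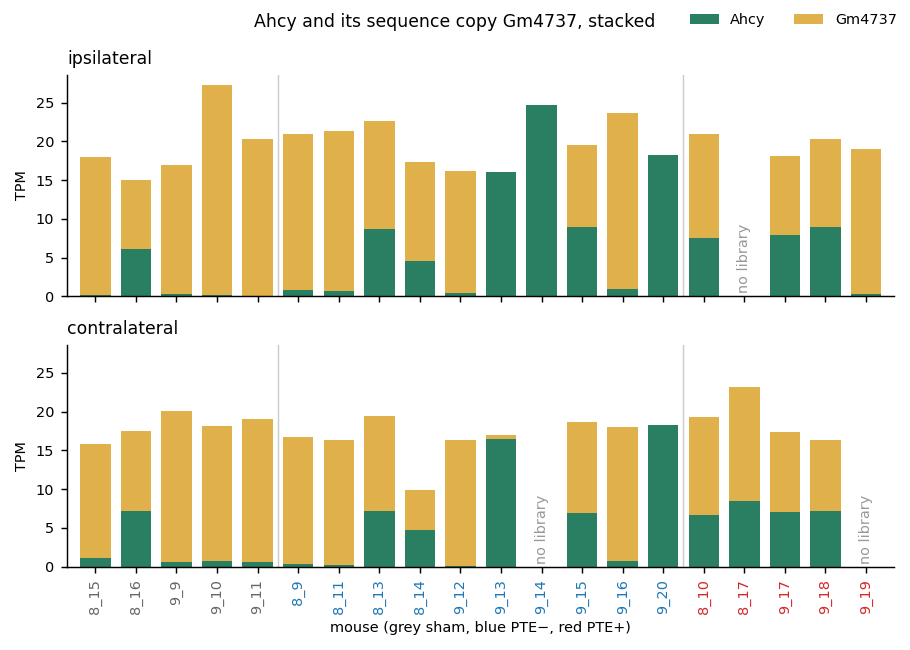
Ahcy (green) and Gm4737 (yellow) in TPM, stacked from 0, for each library in the ipsilateral (top) and contralateral (bottom) cortex, with mice ordered by group. The total stays between 9.94 and 27.3 TPM, while its Ahcy part is at most 7.23%, between 26.5% and 47.5%, or at least 97.5% of the bar, and is alike in both cortices of a mouse.

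The injured mice, with and without epilepsy, were first compared with sham mice. Ipsilateral Tmem14c averaged 63.0 ± 47.6 TPM after CCI (SD, n = 14) against 15.03 ± 26.1 TPM in sham mice (SD, n = 5), a difference of 2.26 on log2(TPM + 1). Contralateral means were 55.5 ± 54.8 TPM (SD, n = 13) and 12.96 ± 20.3 TPM (SD, n = 5), a difference of 1.65. Of the injured mice, 4 of 14 ipsilateral and 5 of 13 contralateral libraries lay under 5 TPM, against 4 of 5 and 3 of 5 in sham mice. The SD exceeded the mean in sham mice of both hemispheres, since 1 mouse supplied most of each sham mean.

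Ipsilateral Ahcy averaged 7.77 ± 7.52 TPM after CCI (SD, n = 14) against 1.37 ± 2.65 TPM in sham mice (SD, n = 5), 1.75 apart on log2(TPM + 1). Contralateral means were 6.50 ± 5.76 TPM (SD, n = 13) and 2.05 ± 2.89 TPM (SD, n = 5), 1.12 apart. The copy went the other way, with Gm4737 at 12.2 ± 7.62 TPM after CCI and 18.2 ± 6.53 TPM in sham mice ipsilaterally, and 10.96 ± 5.85 TPM and 16.1 ± 3.70 TPM contralaterally, over the same libraries. The sum of both was 19.9 ± 2.64 TPM after CCI and 19.5 ± 4.73 TPM in sham mice ipsilaterally, a difference of 0.05 on log2(TPM + 1). Contralaterally it was 17.5 ± 2.94 TPM and 18.1 ± 1.64 TPM, a difference of −0.07. Counted with its copy, Ahcy therefore differed between injured and sham mice by less than the spread between replicates in both cortices. The Ahcy share of the sum averaged 39.2% after CCI and 8.88% in sham mice ipsilaterally, and 37.2% and 11.7% contralaterally. Read assignment between the pair was not measured, and its part in the Ahcy difference was not tested.

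The related genes were not chosen on this contrast and were tested by limma over all genes, with a call meaning an unadjusted p under 0.05 and a fold of at least 1.2. In the ipsilateral cortex 169 of 10434 genes (1.62%) were called between CCI and sham, and contralaterally 428 of 10556 (4.05%). Of the 3 related genes, 0 were called in either, at an unadjusted p under 0.05 in 0 of the 6 tests, nor did an exact permutation test give a lower p than 0.287. Tmem14a measured 54.2 ± 25.8 TPM after CCI (SD, n = 14) against 60.5 ± 9.90 TPM in sham mice (SD, n = 5) ipsilaterally, a difference of −0.24 on log2(TPM + 1) with a 95% interval from −0.70 to 0.23 (exact permutation p = 0.318). Without mouse 9_14, whose Tmem14a was 139 TPM against 32.3 to 74.8 TPM elsewhere, the injured mean was 47.7 ± 8.93 TPM (SD, n = 13) and the difference −0.35. Tmem14a was called in that fit, in which 399 of 10424 genes were called.

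Ahcyl1, the most abundant of the 5, measured 278 ± 41.4 TPM after CCI (SD, n = 14) against 291 ± 70.3 TPM in sham mice (SD, n = 5) ipsilaterally, and the interval of the difference ran from −0.33 to 0.24 (exact permutation p = 0.748). Contralaterally it measured 294 ± 49.9 TPM (SD, n = 13) and 331 ± 83.6 TPM (SD, n = 5), with an interval from −0.45 to 0.16 (exact permutation p = 0.366). Without sham mouse 8_16, the lowest sham library at 207 TPM, this contralateral difference was −0.30. Ahcyl1 was called in that fit, in which 728 of 10664 genes were called. Ahcyl2 measured 43.0 ± 18.8 TPM after CCI (SD, n = 14) against 35.9 ± 9.92 TPM in sham mice (SD, n = 5) ipsilaterally, with an interval from −0.31 to 0.72 (exact permutation p = 0.454). Contralaterally the values were 34.9 ± 10.7 TPM (SD, n = 13) and 44.3 ± 18.8 TPM (SD, n = 5), with an interval from −0.82 to 0.22 (exact permutation p = 0.287). Contralateral Tmem14a measured 52.2 ± 12.5 TPM (SD, n = 13) and 60.5 ± 15.4 TPM (SD, n = 5), with an interval from −0.58 to 0.17 (exact permutation p = 0.295). With all libraries included, none of the differences of the related genes exceeded the spread between libraries.

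**Figure D5:**
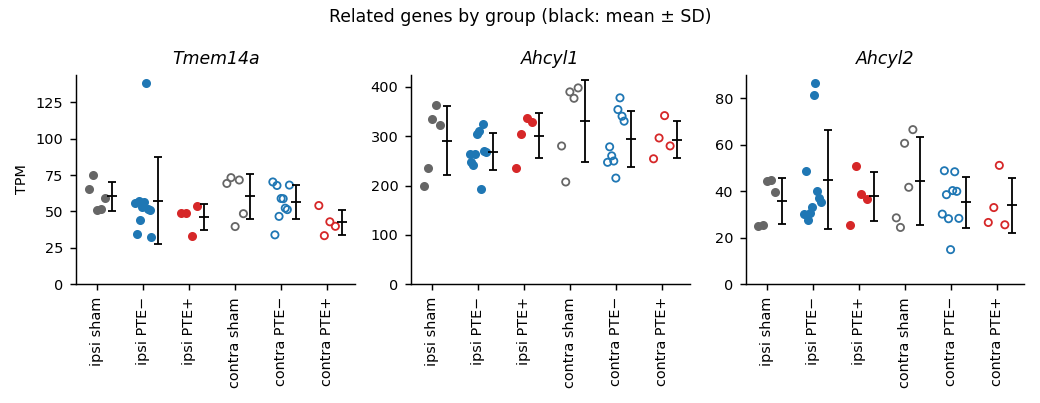
Tmem14a, Ahcyl1 and Ahcyl2 in TPM on axes from 0, by hemisphere and group, 1 point a library, with the mean ± SD in black. Within each gene the groups overlap, and the ipsilateral PTE− library at 139 TPM for Tmem14a is mouse 9_14.

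The question of the study, whether mice that developed epilepsy differed from injured mice that did not, was tested for all 5 genes, since this contrast did not enter their choice. In the ipsilateral cortex 60 of 10473 genes (0.573%) were called, and 0 of the 5 members were, with 0 at an unadjusted p under 0.05 by limma. The ipsilateral means of Tmem14c were 66.4 ± 49.8 TPM in PTE+ (SD, n = 4) against 61.7 ± 49.4 TPM in PTE− mice (SD, n = 10), a difference of 0.19 with a 95% interval from −2.28 to 2.67 on log2(TPM + 1) (exact permutation p = 0.806). For Ahcy they were 6.17 ± 3.97 TPM and 8.41 ± 8.65 TPM over the same numbers of mice, a difference of −0.04 with an interval from −1.85 to 1.78 (exact permutation p = 0.976). Without mouse 9_14 that difference was 0.20. The spread between mice in Tmem14c and Ahcy leaves intervals wide enough to hold a severalfold difference in either direction. Ahcyl1, with its narrower spread, measured 301 ± 45.9 TPM (SD, n = 4) and 269 ± 37.9 TPM (SD, n = 10), with an interval from −0.11 to 0.44 (exact permutation p = 0.236).

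In the contralateral cortex 291 of 10423 genes (2.79%) were called, and of the 5 members Tmem14a was the 1 called. Its contralateral values in PTE+ mice were 54.1 TPM in 8_10, 33.4 TPM in 8_17, 42.9 TPM in 9_17 and 39.8 TPM in 9_18, and in the 9 PTE− mice they ran from 33.9 TPM through a median of 58.8 TPM to 70.3 TPM. All 4 PTE+ mice lay below that median, and the groups overlapped. Tmem14a averaged 42.6 ± 8.65 TPM in PTE+ and 56.5 ± 11.8 TPM in PTE− mice, a difference of −0.39 on log2(TPM + 1) with a 95% interval from −0.77 to −0.01. The limma p was 0.0453 unadjusted and 0.999 after Benjamini-Hochberg adjustment, and the exact permutation p was 0.0699. The call was lost without PTE+ mouse 8_17 (difference −0.28), 9_17 (−0.40) or 9_18 (−0.37). Contralateral Tmem14c averaged 33.9 ± 34.8 TPM in PTE+ (SD, n = 4) against 65.1 ± 60.9 TPM in PTE− mice (SD, n = 9) (exact permutation p = 0.733). Contralateral Ahcy averaged 7.37 ± 0.81 TPM (SD, n = 4) and 6.11 ± 7.00 TPM (SD, n = 9), with an interval of the difference from −0.56 to 2.55 (exact permutation p = 0.269).

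The sum of Ahcy and Gm4737 was 19.6 ± 1.28 TPM in PTE+ (SD, n = 4) against 20.1 ± 3.07 TPM in PTE− mice (SD, n = 10) ipsilaterally (exact permutation p = 0.846). Contralaterally it was 19.05 ± 3.02 TPM (SD, n = 4) and 16.8 ± 2.77 TPM (SD, n = 9) (exact permutation p = 0.305). Neither difference exceeded the spread between mice.

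The ipsilateral and contralateral cortex were compared within the 17 mice. Of 10395 genes, 424 (4.08%) were called, and of the 3 related genes 0 were, with 0 at an unadjusted p under 0.05 by limma. Tmem14a measured 51.1 ± 10.99 TPM (SD, n = 17) ipsilaterally and 55.7 ± 12.7 TPM (SD, n = 17) contralaterally, a difference of −0.12 with a 95% interval from −0.27 to 0.04 (sign-flip permutation p = 0.143). Ahcyl1 was lower ipsilaterally in 12 of 17 mice, with a difference of −0.09 and an interval from −0.21 to 0.03 (sign-flip permutation p = 0.151), and Ahcyl2 differed by 0.06, with an interval from −0.16 to 0.28 (sign-flip permutation p = 0.626). The mean ipsilateral minus contralateral difference was 0.03 for Tmem14c and −0.00015 for Ahcy, with SDs of 0.45 and 0.38 over the 17 mice. The Ahcy mean joins differences of opposite sign. Ahcy was lower ipsilaterally in all 5 sham mice (−0.95 to −0.21, mean −0.49). It was higher in 9 of 12 injured mice (mean 0.20 over the 12), the other 3 lying between −0.038 and −0.0023. Of the sham mice, 4 were in the low Ahcy range, near 0 TPM. For the sum of Ahcy and Gm4737, the difference was above 0 in 3 sham mice and below 0 in 2 (mean 0.08). The sum was higher ipsilaterally in 9 of 12 injured mice (mean 0.20 over the 12).

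The difference between hemispheres was also compared between 3 PTE+ and 9 PTE− mice by an exact permutation test over 220 splits, whose smallest p is 0.00455. It was 0.15 for Tmem14a (p = 0.486), 0.07 for Ahcyl1 (p = 0.723) and −0.02 for Ahcyl2 (p = 0.959). For Tmem14c it was −0.34 and for Ahcy −0.02. These are given without a test, since the likeness of the hemispheres entered the choice of both genes. The same difference between 12 injured and 5 sham mice, in the exact permutation test, was 0.42 for Ahcyl2 (p = 0.0966), −0.20 for Tmem14a (p = 0.250) and 0.12 for Ahcyl1 (p = 0.373).

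Per unit of transcript length, Ahcyl1 was the most abundant member at 193 to 398 TPM (median 280 TPM), and no library of another member reached its lowest value. Tmem14c (median 55.0 TPM) and Tmem14a (median 52.3 TPM) came next, and the range of Tmem14a, 32.3 to 139 TPM, lay inside that of Tmem14c. Ahcyl2 followed at 14.9 to 86.6 TPM (median 37.1 TPM), overlapping with Tmem14a. Ahcy was the lowest, with a median of 4.72 TPM, and its upper range overlapped with the lowest Ahcyl2 libraries. The highest library exceeded the lowest 172-fold for Tmem14c and 309-fold for Ahcy, against 4.30-fold for Tmem14a, 2.06-fold for Ahcyl1 and 5.82-fold for Ahcyl2 (228-fold, 2.32-fold, 1.99-fold and 5.46-fold for Ahcy, Tmem14a, Ahcyl1 and Ahcyl2 without mouse 9_14). Summed with its near-identical copy Gm4737, Ahcy had a median of 18.3 TPM and a 2.74-fold range over the 37 libraries.

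Genes beside Tmem14c and Ahcy on their chromosomes were examined for the same split. The 5 nearest protein-coding genes on each side with a mean above 1 TPM were taken for each, and 0 of these 20 were split (Mak, under the filter, was not examined). Next to Tmem14c, Pak1ip1 (chromosome 13, 41001023 to 41013015) measured 44.4 to 83.0 TPM, Gcnt2 (40859754 to 40960892) 2.96 to 17.6 TPM, Mak (41025008 to 41079706) 0 to 5.38 TPM and Elovl2 (41182381 to 41220405), a fatty acid elongase, 41.5 to 111 TPM, all without mouse 9_14. Next to Ahcy, again without mouse 9_14, Eif2s2 (chromosome 2, 154871410 to 154892935), a translation initiation factor subunit, measured 14.98 to 40.8 TPM and Raly (154791096 to 154867261) 7.56 to 39.2 TPM. Itch (155133509 to 155226855), a ubiquitin ligase, measured 6.59 to 32.4 TPM and Dynlrb1 (155236533 to 155250277), a dynein light chain, 335 to 553 TPM, also without that mouse. The spread of these neighbours between highest and lowest library was 1.63-fold to 5.93-fold without mouse 9_14, where Mak at 0 TPM gives no fold. With that library it reached 400-fold in Tmem170b (0.05 to 20.02 TPM), 272-fold in E2f1 (0.12 to 32.7 TPM), 23.9-fold in Slc35b3, 13.9-fold in Eif2s2 and 10.4-fold in Itch, the first 3 named after their values were seen. Spearman's rho of the 10 neighbours of Tmem14c with it lay between −0.46 and 0.34 over 19 ipsilateral and between −0.09 and 0.62 over 18 contralateral libraries, and for Ahcy between −0.29 and 0.56 and between −0.12 and 0.59.

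The genes most like Tmem14c across libraries, by the smaller of the rho over the 19 ipsilateral and the 18 contralateral libraries among 10873 genes, were Nudt19 (0.64 and 0.64), Rasgef1b (0.55 and 0.49), Lrp8 (0.48 and 0.56), Arrb2 (0.52 and 0.47) and Arl14ep (0.47 and 0.51). Nudt19, the closest, measured 52.9 to 162 TPM. For Ahcy they were Nudt6 (0.56 and 0.58), Acot2 (0.65 and 0.51), Myc (0.57 and 0.49), BC029722 (0.47 and 0.82) and Fahd1 (0.47 and 0.54). BC029722 is on chromosome 2 as well, from 155817730 to 155819426, and measured 10.8 to 65.3 TPM. None of these 10 genes was split. Both hemispheres come from the same mice, so that the second rho is not independent of the first.

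Genes of heme synthesis and transport, the pathway of Tmem14c, were examined as a list of 27, of which 23 or 24 passed the filter in each comparison. Ipsilaterally after CCI, 1 of 24 was called higher and 0 lower, where 1.62% of all genes were called, with a median log2 difference of 0.03 against −0.01 over all genes, and contralaterally 1 of 23 and 0, where 4.05% of all genes were called, with 0.02 against −0.07. The gene called was Hmox1, heme oxygenase 1, which breaks heme down. It measured 31.9 ± 5.40 TPM after CCI (SD, n = 14) against 23.7 ± 4.44 TPM in sham mice (SD, n = 5) ipsilaterally, a log2 difference of 0.41 (SE 0.15, limma adjusted p = 0.9997). Contralaterally it measured 26.4 ± 4.00 TPM (SD, n = 13) and 20.4 ± 3.24 TPM (SD, n = 5), a difference of 0.36 (SE 0.12, limma adjusted p = 0.978). Hmox1 was also the 1 of 23 heme genes called between hemispheres, where 4.08% of all genes were called, at 29.6 ± 6.61 TPM ipsilaterally and 24.3 ± 4.35 TPM contralaterally in the 17 mice (difference 0.26, SE 0.06, limma adjusted p = 0.116). These comparisons share mice.

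The enzymes and carriers of heme synthesis named next did not pass the thresholds in any comparison. Alas1, which starts heme synthesis, measured 183 TPM after CCI and 198 TPM in sham mice ipsilaterally, and Alad, which follows it, 177 and 190 TPM. The enzymes of the last steps, on either side of the membrane Tmem14c sits in, were Cpox at 19.2 and 16.9 TPM, Ppox at 51.3 and 62.3 TPM and Fech at 69.8 and 69.0 TPM. The mitochondrial carriers Slc25a38 and Abcb10 measured 51.3 and 48.0 TPM and 11.6 and 11.8 TPM. All 7 of these genes differed by at most 0.25 on log2(TPM + 1) in that comparison. Between PTE+ and PTE− mice, 0 of 23 heme genes were called ipsilaterally (0.573% of all genes), at a median of 0.05 against 0.12 over all genes. Contralaterally 2 of 24 were called (2.79% of all genes), at a median of −0.002 against 0.05. These were Slc25a28, which carries iron into mitochondria, at 52.5 ± 6.24 TPM in PTE+ (SD, n = 4) against 37.9 ± 6.72 TPM in PTE− mice (SD, n = 9) (limma adjusted p = 0.999), and Blvrb, which reduces biliverdin, at 57.4 ± 3.94 TPM and 69.4 ± 5.39 TPM (limma adjusted p = 0.999).

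Of 26 genes of the methionine cycle and transmethylation, the pathway of Ahcy, 16 or 17 passed the filter. After CCI 0 of 16 were called in either cortex (1.62% and 4.05% of all genes), with median differences of 0.01 and −0.04 against −0.01 and −0.07 over all genes, and 0 of 16 between hemispheres (4.08% of all genes), at 0.01 against −0.03. Mat2a, which makes S-adenosylmethionine, measured 289 TPM after CCI and 316 TPM in sham mice ipsilaterally. Cbs, which removes homocysteine, measured 293 and 285 TPM, and Adk, which phosphorylates adenosine, 398 and 382 TPM. Mtr and Gnmt lay under the filter, at 1.43 and 0.85 TPM after CCI. Between PTE+ and PTE− mice 1 of 17 genes was called ipsilaterally (0.573% of all genes), at a median of 0.10 against 0.12, and 1 of 16 contralaterally (2.79% of all genes), at 0.02 against 0.05. Both times it was Amd1, the decarboxylase that turns S-adenosylmethionine toward polyamines. Amd1 measured 67.9 ± 5.31 TPM in PTE+ (SD, n = 4) against 53.8 ± 9.88 TPM in PTE− mice (SD, n = 10) ipsilaterally (limma adjusted p = 0.977), and 67.4 ± 3.97 TPM (SD, n = 4) and 53.1 ± 8.45 TPM (SD, n = 9) contralaterally (limma adjusted p = 0.999). The ipsilateral call was lost without any 1 of the 4 PTE+ mice.

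Red blood cell transcripts were present at very different levels. The summed level of 7 erythroid markers ran from 507 to 12625 TPM in ipsilateral sham, from 522 to 7336 TPM in PTE− and from 502 to 1650 TPM in PTE+ libraries, and contralaterally from 570 to 4925 TPM, from 1158 to 7729 TPM and from 1661 to 7822 TPM. These came mainly from haemoglobin transcripts, while Slc4a1 was at 0 in 34 of 37 libraries. The groups overlapped in this sum in both cortices. Oligodendrocyte markers, 8 in all, summed to a median of 3076 TPM in ipsilateral sham against 1334 TPM in PTE− and 1427 TPM in PTE+ libraries. Contralaterally the sham median was the lowest, with medians of 1808 TPM in sham, 2206 TPM in PTE− and 2207 TPM in PTE+ libraries. The groups overlapped in both cortices. Ipsilaterally the sum ran from 519 to 4456 TPM in sham, 774 to 2257 TPM in PTE− and 1180 to 2311 TPM in PTE+ libraries. Contralaterally it ran from 1025 to 3366 TPM, 832 to 3740 TPM and 1588 to 2588 TPM in the same order. The part of red blood cell or oligodendrocyte transcripts in the CCI differences was not tested.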

How the data were processed

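Astrocyte RNA of both cortices was sequenced from SMART-Seq v4 libraries as paired reads of 100 bases. The deposited values are TPM, which the authors made by trimming with Trim Galore 0.6.4 and mapping to mm10 with RSEM 1.2.28 and Bowtie2 2.4.1. The gene models used by RSEM are not given in the sources used here. RSEM shares reads that match several transcripts by an estimate, so genes with near-identical copies are uncertain. Read depth per library cannot be recovered from TPM, so no counting interval is given, and the authors' count test (DESeq2 1.36.0) was not repeated.

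The tables hold 19 ipsilateral and 18 contralateral libraries, and 0 columns of other samples. Symbols and positions came from GENCODE M21 (GRCm38), which named 21856 of 21975 identifiers. The members and gene lists were chosen with earlier results of these data known. Genes whose mean passed 5 TPM in any compared group were fitted on log2(TPM + 1) with limma 3.58.1 (trend) in R 4.3.3, after the fit was tested on simulated data, and called at an unadjusted p under 0.05 and a fold of at least 1.2, the study's thresholds. Folds on this scale are too small for genes near 0. Benjamini-Hochberg adjustment ran over all tested genes. Members also had two-sided exact permutation tests over libraries (11628 and 8568 splits for CCI against sham, 1001 and 715 for PTE+ against PTE−), or over sign flips of the 17 mice. All p-values measure the spread between mice.

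Hemispheres were paired by the mouse name in the sample titles. Over 10874 genes, the deviations of the 2 libraries of a mouse from their group means correlated with a median of 0.40 (0.04 to 0.68), above 0.1 in 16 of 17 mice. Copies were sought with blastn 2.17.0 in GENCODE transcripts. Genes were named by role in the lists (the members, their copies, the nearest neighbours, the 5 most alike genes, set pathway genes and every list gene called, and the 5 widest split genes). Alternatives were a pseudocount of 0.1, no filter, quantile normalization, no fold threshold, the mouse name prefix (8 or 9) as a covariate, no pairing, and leaving out single mice. Summing Ahcy and Gm4737, and the 3 ranges of each gene, were chosen after seeing the data.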

Additional observations from a re-analysis of the deposited data

Results flagged for a closer look

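Within each group of 4 to 10 libraries, the highest and the lowest library were compared with the rest by Dixon's criterion on log2(TPM + 1), for the 5 members, Gm4737 and the sum of Ahcy and Gm4737. Of 42 sets of values, 9 held a library that stood apart. Chance gives about 5%, but the count cannot be weighed against it. Tmem14c and Ahcy were chosen on these data, the sets share mice, and the sum contains Ahcy.

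Sham mouse 9_10 stood above the other sham mice in Tmem14c, at 61.7 TPM ipsilaterally and 49.3 TPM contralaterally, and PTE+ mouse 9_18 stood below the other ipsilateral PTE+ mice, at 2.44 TPM. Sham mouse 8_16 stood above the other sham mice in Ahcy, at 6.11 TPM ipsilaterally and 7.20 TPM contralaterally, and PTE+ mouse 9_19 stood below the other ipsilateral PTE+ mice, at 0.28 TPM. Each of these 6 libraries lay in a range of its gene that no other library of its group shared, so they repeat the ranges described above. In Gm4737 no library stood apart by this criterion in any group. The criterion compares 1 library with the rest, so it can miss several that are low together. Ipsilateral Gm4737 was 0, 0 and 0.09 TPM in PTE− mice 9_13, 9_14 and 9_20. Contralaterally it was 0.43 TPM in 9_13 and 0.07 TPM in 9_20.

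PTE− mouse 9_14 stood above the other ipsilateral PTE− mice in Tmem14a, at 139 TPM, and this is the library with the fewest detected genes. Contralateral Ahcyl2 of PTE− mouse 9_12 was low, at 14.9 TPM, against 33.1 TPM in its ipsilateral cortex. The contralateral sum of Ahcy and Gm4737 in PTE− mouse 8_14 was low, at 9.94 TPM.

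The ipsilateral minus contralateral difference of Ahcy on log2(TPM + 1) was below 0 in all 5 sham mice, with a mean of −0.49, and above 0 in all 3 PTE+ mice with both cortices, with a mean of 0.19. Of the sham mice, 4 were in the low Ahcy range, near 0 TPM. For the sum of Ahcy and Gm4737, the difference was above 0 in 3 sham mice and below 0 in 2. Its mean was 0.08 in sham mice and 0.15 in the 3 PTE+ mice. The Ahcy difference between sham and PTE+ mice was not tested, since the likeness of the hemispheres entered the choice of Ahcy.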

How the results depend on the processing

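Tmem14c and Ahcy were chosen on these data for being higher after CCI than in sham mice, so keeping that direction was likely. Both kept it, in both cortices, under every alternative run for them, with 1 exception. Summed with Gm4737, an alternative chosen after seeing the data, Ahcy differed by 0.046 ipsilaterally and by −0.066 contralaterally, the latter in the opposite direction. The Tmem14a call between contralateral PTE+ and PTE− mice was lost with the prefix of the mouse names in the fit (−0.39) and without PTE+ mouse 8_17, 9_17 or 9_18. Without a filter the counts of called genes were 379 (CCI against sham, ipsilateral), 682 (contralateral), 171 (PTE+ against PTE−, ipsilateral) and 458 (contralateral), since low genes enter. Between hemispheres 1313 genes were called with no fold threshold and 233 without the pairing by mouse, whose block changed the call of no member. Split genes numbered 84 at a gap of 0.5, 10 at a gap of 2 and 82 with 1 or more mice on each side.

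Leaving out single mice, called genes ranged from 138 (without sham 8_16) to 415 (without sham 9_11) for CCI against sham ipsilaterally, 399 without 9_14, and from 231 (sham 9_11) to 883 (sham 9_9) contralaterally, 667 without PTE+ 9_17 and 728 without sham 8_16. For PTE+ against PTE− they ranged from 23 (PTE+ 9_17) to 197 (9_14) ipsilaterally, 121 without 8_10, and from 201 (9_17) to 489 (9_18) contralaterally. The differences of the related genes after CCI ranged from −0.35 to −0.16 (Tmem14a) and −0.17 to 0.044 (Ahcyl1) ipsilaterally, and from −0.30 to −0.066 (Ahcyl1) contralaterally. PTE+ minus PTE− differences ranged from −0.38 to 1.35 (Tmem14c), −0.32 to 0.67 (Ahcy) and −0.33 to 0.0032 (Ahcyl2) ipsilaterally, and from −1.33 to 0.073 (Tmem14c), −0.51 to −0.28 (Tmem14a), −0.068 to 0.073 (Ahcyl1) and −0.24 to 0.082 (Ahcyl2) contralaterally. The difference of this effect between hemispheres ranged from −0.064 to 0.011 (Ahcy), −0.065 to 0.15 (Ahcyl1) and −0.22 to 0.10 (Ahcyl2). The causes were not tested. The number of mice, 20 with 1 library a cortex, limits the precision, and read depth is unknown.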

Other observations

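Near-identical transcripts were common among the 29 split genes. A transcript of another gene in the tables, outside the gene's own position, matched at 90% or more over at least 200 bases for 15 of the 29 (51.7%), against 608 of 10857 genes with a mean above 5 TPM and a transcript (5.6%). This was looked up after the split genes were known, and Ahcy and Gm4737 account for 2 of the 15. Kpna2 and Gm10184, Tlr1 and Tlr6, and Xlr3a and Xlr3b are also each other's match, so the 15 are not separate cases. Tmem14c was not among the 15.

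A second pair showed values of the same kind as Ahcy and Gm4737, and is named here after its values were seen. Kpna2, which encodes the nuclear import factor importin alpha, ran from 0.26 to 67.6 TPM and Gm10184 from 0.06 to 64.0 TPM over the 37 libraries. Their transcripts matched at 99.9% over 1968 bases, and the sum of both ran from 29.6 to 67.8 TPM. Tlr1 and Tlr6, another split pair, matched at 94.9% over 1076 bases, and their sum ran from 1.36 to 39.1 TPM. Xlr3a and Xlr3b, also both split, matched at 98.0% over 3785 bases, and their sum ran from 1.36 to 99.3 TPM.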
